A study of Mus musculus with 76 samples.

Results

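The proteasome subunit genes are taken here as the protein-coding genes of the count table whose symbol starts with Psma, Psmb, Psmc, Psmd, Psme, Psmf or Psmg followed by a number, with a mean of at least 1 CPM (read counts scaled to a common library total) in any tissue. Of 38129 genes in the table, 50 protein-coding genes matched the name, and 48 of them reached the level. Psma8 and Psmb11, the testis and thymus variants, stayed under it, at up to 0.726 CPM (Psma8, liver), and the lowest gene that reached it was Psmc3ip, at up to 2.64 CPM (heart). The series measured gene expression by RNA sequencing in 3 mouse tissues, namely liver, heart and SCN (suprachiasmatic nucleus, where the central clock of the hypothalamus lies). The genotypes were WT (wild type) and Bmal1-VIPKO (KO), a central knockout of the clock gene Bmal1 (symbol Arntl) directed by VIP, the vasoactive intestinal peptide of SCN neurons. The mice were fed ad libitum (AL) or under time-restricted feeding (TRF), and samples were taken at circadian time (CT) 0 or 12. The 8 combinations in each of 3 tissues gave 24 groups of 3 libraries, except that the TRF KO groups of liver and heart held 4, for 76 libraries in all. The labels give no sex, age, strain, Cre line or feeding hours and do not say whether libraries of a group come from different mice, so p-values measure the spread between libraries, which may be technical. The comparisons bear on how food timing and the central loss of Bmal1 change the time difference of a tissue.

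The proteasome is the protease that degrades proteins tagged with ubiquitin. Its 20S core is a barrel of alpha subunits (Psma genes) that form the gate and beta subunits (Psmb genes), of which Psmb5, Psmb6 and Psmb7 cut peptide bonds. Interferon brings in the immune subunits Psmb8, Psmb9 and Psmb10 in their place, which favours peptides for class I antigen presentation. The 19S regulatory particle caps the core. Its ATPases (Psmc genes) unfold the substrate and its other subunits (most Psmd genes) form the scaffold and lid, bind ubiquitin and remove it. Chaperones (Psmg genes, Psmd5, Psmd9 and Psmd10) assist assembly, Psme genes encode alternative activators, and Psmf1 encodes the regulator PI31. In mammals the factor Nfe2l1 raises transcription of subunit genes when proteasome activity falls short.

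By role, the 48 genes were 7 alpha subunits, 4 beta subunits without activity, 3 constitutive catalytic subunits, 3 immune subunits, 6 ATPases, 11 other 19S subunits, 7 assembly chaperones and 6 activators or regulators. The last, Psmc3ip, carries the name but belongs to meiotic recombination and is no subunit. All 48 passed the filter on low counts in each tissue. Per kb of exon, the highest mean levels were those of Psmb4, a structural beta subunit, in liver (92.3 CPM), of the ATPase gene Psmc3 in heart (92.8) and of the ATPase gene Psmc5 in SCN (131). The lowest were Psmc3ip in liver (0.250 CPM), the chaperone gene Psmg3 in heart (0.716) and the immune subunit gene Psmb8 in SCN (0.542). Together the genes held a median of 0.317% of all counts in liver, 0.371% in heart and 0.343% in SCN. Psme2 and Psme2b are near-identical copies between which reads could be split, so their values are uncertain. In these bulk tissues, fewer cells of a type and less RNA per cell cannot be told apart.

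Some libraries stood apart. Total counts ran from 13502014 to 19018983. The targeted gene Arntl was at 18.2 to 27.5 CPM in the WT and at 18.3 to 29.2 CPM in the KO SCN libraries, so that bulk SCN did not show its loss. The 3 AL WT CT12 hearts held transcripts of neurons and glia: the summed level of 10 neuron and glia markers was 778 to 2191 CPM there and 88.7 to 117 CPM in the other hearts. Snap25, a neuronal marker, stood at 66.2, 228 and 67.7 CPM in them, and their 6 cardiomyocyte markers summed to 42110 to 54323 CPM against at least 66389 CPM elsewhere. Library S48 among them had 34.2% mitochondrial counts. The 6 hepatocyte markers summed to 90964 to 130540 CPM in liver, and to 29.8 to 3488 CPM in the SCN libraries, where the 7 SCN markers ranged from 37.1 to 1372 CPM. The 6 markers were not alike in SCN. In the joint fit of the tissues described below, SCN minus liver was log2 -22.1 for Alb and -15.2 for Apoa1, but -5.96 for Ttr. The part of each marker in the SCN sum was not tested. Among livers, the cardiomyocyte markers reached up to 121 CPM, in 2 of 3 libraries of each AL KO group and in 1 of 3 of AL WT CT12 and of TRF WT CT0. Libraries are named here by S and their title number, as in the heads of the count table. Each AL group also held a library with a 3-digit number (S401, S404, S407 or S410), which lay between the other two libraries for 37.5% to 62.5% of the proteasome genes in liver and heart and for 14.6% to 37.5% in SCN. In liver and heart it was also close to S38, S47, S56 or S65, the library of its group with the lowest title number. The mean chi-square per gene between these 2 (1 for sampling noise alone) was 1.75 to 2.96 in heart and 3.31 to 5.49 in liver, where all other pairs of a group were at 4.62 to 269 and at 6.845 to 94.2. In SCN the same pairs were at 10.9 to 14.1, within the 2.875 to 24.6 of the other pairs. Whether the AL groups hold 3 independent libraries is not given in the labels. Results that rest on these libraries are given with and without them.

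In liver, genes of the 19S particle changed with circadian time, upward from CT0 to CT12 under TRF, and the lid subunit Psmd11 changed in the opposite direction under AL in WT. In TRF WT, 3 of 6 ATPase genes and 4 of 11 other 19S genes rose, with the core subunit Psmb3, while the PI31 gene Psmf1 fell. Of all genes tested, 11.0% rose and 12.1% fell there. In TRF KO, 3 of 6 ATPase genes and 6 of 11 other 19S genes rose, beside 10.5% of all genes. No alpha subunit or constitutive catalytic subunit was called in either. A gene is called here at a Benjamini-Hochberg adjusted p below 0.05 in edgeR's quasi-likelihood test over all genes of the tissue.

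Psmd11 (Rpn6, a lid subunit that joins the 19S particle to the core) had the smallest p. The gene (ENSMUSG00000017428) lies on the plus strand at chr11:80428615-80473248 (GRCm38) and no other annotated gene overlaps it. Its level, in CPM scaled by TMM factors as all levels below, was 66.1, 74.7 and 70.9 in the TRF WT libraries at CT0 and 104, 110 and 95.1 at CT12. In TRF KO it was 60.9, 57.5, 61.2 and 64.2 at CT0 and 100, 107, 93.3 and 115 at CT12. Every CT12 library of both TRF groups lay above every CT0 library of its group. In AL WT, Psmd11 stood at 107, 101 and 107 at CT0 and at 78.6, 73.4 and 77.8 at CT12. In AL KO it stood at 114, 101 and 109 at CT0 and at 92.3, 97.7 and 92.1 at CT12. Here every CT12 library lay below every CT0 library of its group. The log2 difference, CT12 minus CT0, was 0.55 ± 0.09 (SE) in TRF WT (n = 3 each; edgeR adjusted p 8.7e-05) and 0.77 ± 0.08 in TRF KO (n = 4 each; adjusted p 1.1e-07). It was -0.46 ± 0.09 in AL WT (adjusted p 0.0012), and AL KO did not pass the test.

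Psmc2 (Rpt1, an ATPase of the base; ENSMUSG00000028932, chr5:21785283-21803787, plus strand) was at 50.4, 47.4 and 56.3 CPM in TRF WT at CT0 and at 70.0, 81.3 and 72.9 at CT12, with no overlap (log2 0.54 ± 0.14, edgeR adjusted p 0.0057). In TRF KO the values were 42.3, 40.6, 56.0 and 56.8 against 82.7, 63.5, 56.0 and 78.2, so that S30 at CT12 lay within the CT0 range (log2 0.52 ± 0.12, adjusted p 0.0024). In AL WT, Psmc2 was lower at CT12 (68.4, 62.5 and 69.5 against 83.4, 79.0 and 85.9) without passing the test. Psmd7 (Rpn8, the partner of the deubiquitinase) was at 63.3, 63.5 and 71.3 CPM in TRF WT at CT0 and at 79.8, 82.9 and 83.1 at CT12 (log2 0.31 ± 0.09, adjusted p 0.014). Its direction was also the reverse in AL WT, with 82.7, 85.5 and 86.6 at CT0 and 66.5, 68.2 and 65.4 at CT12 (log2 -0.35 ± 0.09, adjusted p 0.014).

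The reference sequences around the starts of Psmd11 and Psmc2, which moved together, and of Psmb10, an immune subunit that moved the other way, are shown for context. Each runs 5′ to 3′ from 250 bases before to 50 bases after the RefSeq gene start (GRCm38.p6). They lie at chr11:80428365-80428664 (plus strand), chr5:21785025-21785324 (plus strand) and chr8:105938343-105938642 (minus strand). Capitals mark the motif match named below, which none was found for in Psmd11.
Psmd11: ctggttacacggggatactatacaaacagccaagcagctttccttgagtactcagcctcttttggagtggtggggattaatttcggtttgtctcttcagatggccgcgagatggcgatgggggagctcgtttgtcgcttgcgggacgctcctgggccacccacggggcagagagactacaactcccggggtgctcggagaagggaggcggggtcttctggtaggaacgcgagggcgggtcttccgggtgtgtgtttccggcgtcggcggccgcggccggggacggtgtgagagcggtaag
Psmc2: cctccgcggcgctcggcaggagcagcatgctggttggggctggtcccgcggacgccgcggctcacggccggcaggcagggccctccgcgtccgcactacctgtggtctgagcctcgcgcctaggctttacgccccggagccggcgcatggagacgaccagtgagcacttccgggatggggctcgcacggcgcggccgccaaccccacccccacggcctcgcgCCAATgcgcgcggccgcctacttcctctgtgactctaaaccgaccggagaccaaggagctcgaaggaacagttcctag
Psmb10: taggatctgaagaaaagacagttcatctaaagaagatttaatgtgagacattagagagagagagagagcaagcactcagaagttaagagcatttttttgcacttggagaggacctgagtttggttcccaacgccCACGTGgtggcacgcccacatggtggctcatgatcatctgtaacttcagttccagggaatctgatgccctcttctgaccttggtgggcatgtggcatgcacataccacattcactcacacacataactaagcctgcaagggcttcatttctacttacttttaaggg

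In the Psmc2 window the CCAAT box lies 28 bases before the start, and in the Psmb10 window the E-box CACGTG, the sequence that Bmal1 and its partner Clock bind, lies 116 bases before it. Of the 48 genes, 41 had such a window. The 27025 genes with a window had 32851 windows, and a gene was counted where any of its windows held the match on either strand. Only 1 window per gene is printed above. CCAAT was found in 14 of the 41 genes (34.1%), against 41.1% of the 27025. The E-box CACGTG was found in 4 of 41 (9.76%; Psma4, Psmb10, Psmd9 and Psme3) against 8.09% of all genes, and the antioxidant response element TGACNNNGC, which Nfe2l1 binds, in 6 (14.6%) against 14%. The interferon-linked GAAANNGAA was found in 7 (17.1%) against 9.76%, none of them an immune beta gene. Psmc2 is among the 7 through a window that is not printed here. The D-box TTATGTAA or TTACGTAA was found in 0 against 1.23%. No motif contains another. These shares are counts of letters in the windows and say nothing on binding.

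**Figure D1:**
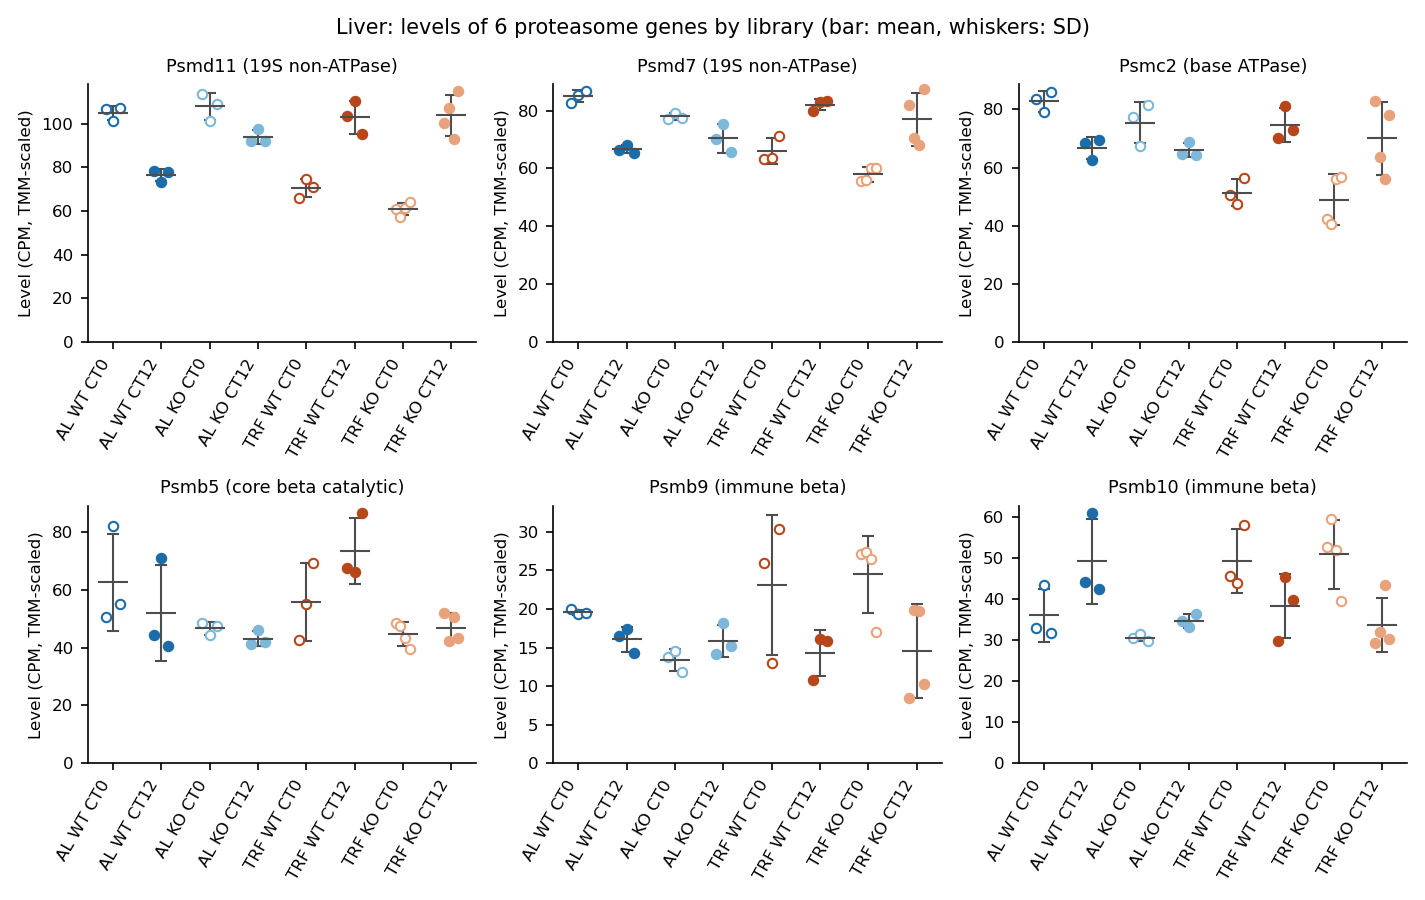
Level in liver (vertical axis, CPM scaled by TMM factors) of 6 proteasome genes in each library, by group (horizontal axis); circles are libraries (open at CT0, filled at CT12), bars the mean and whiskers the SD. Psmd11 lies at 57.5 to 74.7 in the TRF CT0 libraries and at 93.3 to 115 in the TRF CT12 libraries, and Psmb10 is lower at CT12 than at CT0 on average under TRF.

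Counted over all 48 genes in liver, 8 (16.7%) rose and 1 (2.08%) fell in TRF WT, where 11.0% of the 14397 genes tested rose and 12.1% fell. In TRF KO, 9 (18.8%) rose and 4 (8.33%) fell, against 10.5% and 11.5% of all genes. In AL WT none rose and 3 (6.25%) fell, Psmd11, Psmd7 and the ubiquitin receptor gene Psmd4 (log2 -0.41 ± 0.13, edgeR adjusted p 0.047), against 4.45% and 4.54% of all genes. That share is near the background, and it went to 1 gene without S401, S404 or S47 or with no filter on low counts, and to 0 without the 3-digit libraries. In AL KO edgeR called 0 (0.0139% of all genes), with 4 at an unadjusted p under 0.05, all lower, and DESeq2 also called 0. The TRF WT count fell to 5 higher without S1 at CT0 and to 4 higher in a fit of the compared groups alone. The median log2 difference of the 48 was 0.11 in TRF WT (0.03 over all genes), 0.09 in TRF KO (0.03), -0.08 in AL WT (-0.01) and -0.12 in AL KO (0.00).

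The other 19S genes that rose in TRF WT were the ATPase genes Psmc5 (log2 0.54 ± 0.12, edgeR adjusted p 0.002) and Psmc4 (0.50 ± 0.13), the ubiquitin receptor gene Psmd4 (0.45 ± 0.13) and the deubiquitinase gene Psmd14 (0.60 ± 0.18). Psmd14 (Rpn11, which cuts ubiquitin off the substrate) went from 26.9, 23.4 and 25.7 CPM to 37.8, 43.4 and 34.3 with no overlap. In TRF KO, Psmd1 (0.49 ± 0.11) and Psmd2 (0.27 ± 0.08), the scaffold genes, rose with them. The median difference over the ATPase genes was 0.34 in TRF WT and 0.39 in TRF KO, and over the other 19S genes 0.23 and 0.27. Over the alpha genes it was 0.06 and 0.04, over the 3 constitutive catalytic genes 0.30 and 0.05, and over the 3 immune genes -0.36 and -0.60. As a description, the ratio of the summed CPM of the 17 19S genes to that of the 14 constitutive core genes was 1.18 to 1.23 in TRF KO at CT0 and 1.35 to 1.46 at CT12, and 1.27 to 1.39 and 1.43 to 1.50 in TRF WT. It was 1.46 to 1.54 and 1.37 to 1.40 in AL WT, and the AL KO groups overlapped, at 1.36 to 1.41 and 1.32 to 1.40.

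**Figure D2:**
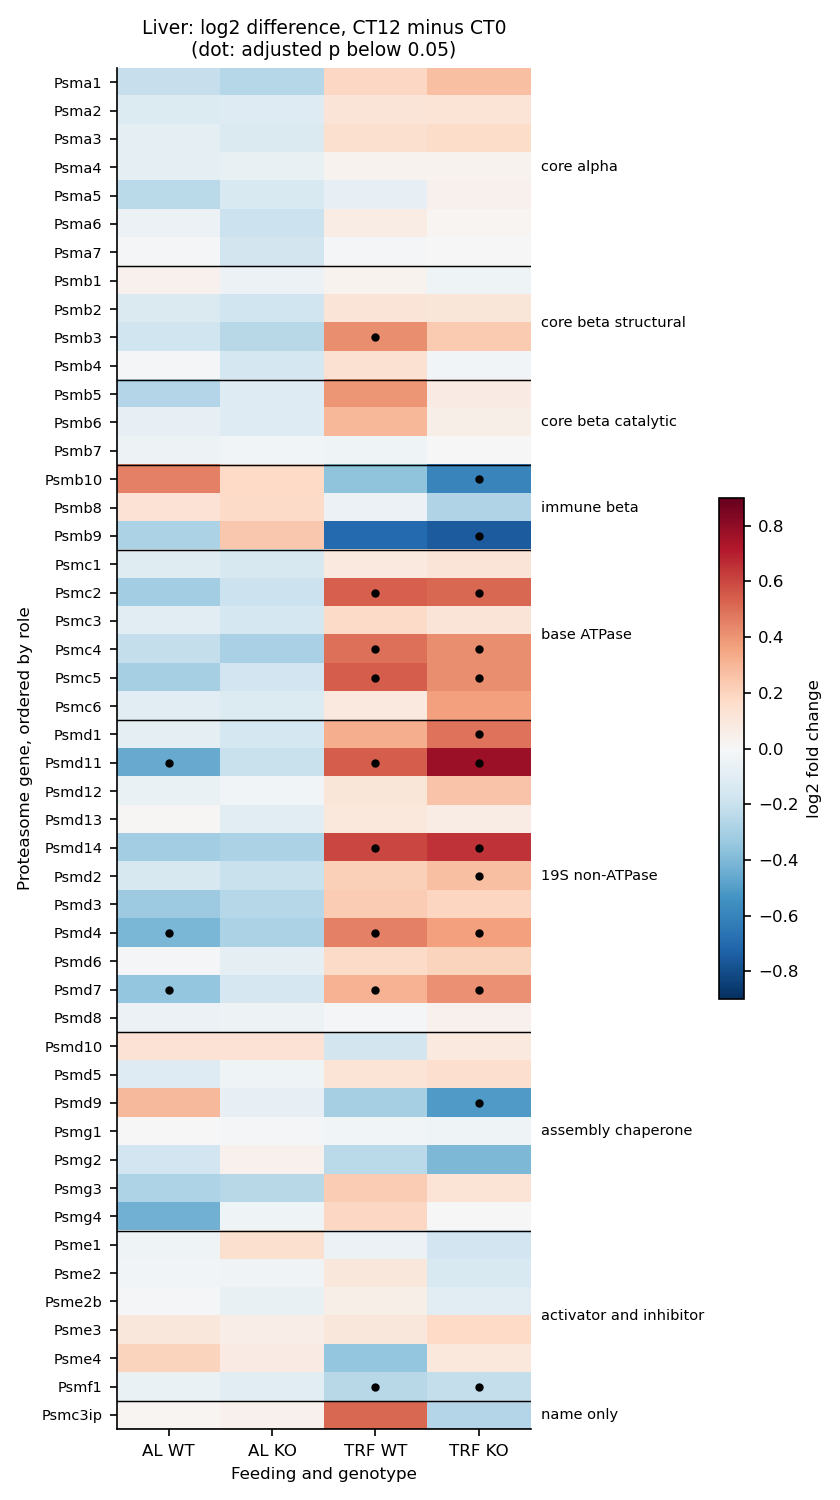
Log2 difference in liver, CT12 minus CT0 (colour), of each of the 48 proteasome genes (rows, ordered by role) in the 4 combinations of feeding and genotype (columns); dots mark an edgeR adjusted p below 0.05. Under TRF the dots gather in the 19S rows, with 7 19S genes in WT and 9 in KO, all higher at CT12. Of all genes tested, 11.0% rose in TRF WT and 10.5% in TRF KO.

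The immune core subunits did not follow the 19S genes. In TRF KO livers Psmb10 (beta 2i, which replaces Psmb7; chr8:105935735-105938444, minus strand, overlapped by the antisense transcript Gm16156) was at 52.8, 59.5, 52.0 and 39.4 CPM at CT0 and at 29.2, 32.0, 43.4 and 30.2 at CT12. The groups overlapped through S55, the lowest at CT0, and S30, the highest at CT12 (log2 -0.60 ± 0.15, edgeR adjusted p 0.0067). Psmb9 (beta 1i, which replaces Psmb6) was at 27.2, 27.4, 26.4 and 17.0 against 8.44, 19.9, 19.8 and 10.2 (log2 -0.75 ± 0.25, adjusted p 0.034). That call was lost under 7 of 12 alternatives, and Psmb9 overlaps the antigen transporter gene Tap1 on the other strand, whose reads cannot be told apart without a stated strand setting. Psmb8 (beta 5i) did not pass the test, at 0.51 adjusted (log2 -0.27), nor did the constitutive Psmb5 (0.07), Psmb6 (0.05) and Psmb7 (0.00) or the activator genes Psme1 (-0.18) and Psme2 (-0.14). In TRF WT none of the 3 immune genes passed, with log2 -0.05 for Psmb8, -0.70 for Psmb9 and -0.36 for Psmb10.

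Of 8 genes of class I antigen presentation, 3 fell at CT12 in TRF KO (Tap1, log2 -0.67 ± 0.19, Tapbp and Tap2) and 3 in TRF WT (Nlrc5, -0.86 ± 0.23, Erap1 and Tapbp), where 11.5% and 12.1% of all genes fell. None of the 8 rose in either. Of 10 leukocyte markers, 4 rose in TRF KO, where 10.5% of all genes rose, and their sum overlapped between the times, being 87.3 to 156 CPM at CT0 and 98.8 to 375 CPM at CT12. The 8 Kupffer cell markers summed to 98.7 to 260 and 111 to 427 CPM, also with overlap, and the 1 called higher is near that background. In TRF WT, 5 of 6 endothelial markers rose (48.6 to 52.6 against 84.4 to 90.9 CPM in sum), where 11.0% of all genes rose. None of these lists had a defining marker at 0 in every liver. The summed neuron and glia markers separated the times in liver too, at 242 to 317 CPM at CT0 and 83.7 to 144 at CT12 in TRF WT, 247 to 355 and 128 to 149.9 in TRF KO, and 85.5 to 117 and 197 to 211 in AL WT. Most of that sum was Slc1a2, a glutamate transporter gene that hepatocytes around the central vein also express (log2 -1.26 ± 0.20 in TRF WT, -1.11 ± 0.17 in TRF KO and 1.02 ± 0.20 in AL WT). Syt1 also fell under TRF, while the neuronal Nefl was at 0 in every liver and Snap25 at no more than 0.193 CPM. The part of these lists in the results was not tested. Psmd9, an assembly chaperone gene, also fell in TRF KO (log2 -0.51 ± 0.14, edgeR adjusted p 0.0095), but it overlaps Hpd, a gene of tyrosine breakdown in hepatocytes, on the other strand.

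Of the ubiquitin handling genes in liver, 4 of 13 rose in TRF KO and 3 of 13 in TRF WT, where Ube3c, a ligase at the proteasome, fell, beside 10.5% and 11.0% of all genes that rose. The ubiquitin shuttle gene Ubqln1 was at 115, 109 and 109 CPM in TRF WT at CT0 and at 169, 166 and 165 at CT12 (log2 0.59 ± 0.08, edgeR adjusted p 1.4e-05). It was at 177, 171 and 178 in AL WT at CT0 and at 133, 130 and 132 at CT12, the reverse direction (log2 -0.41 ± 0.08, adjusted p 0.0014). The other shuttle gene Rad23b and the ubiquitin-activating enzyme gene Uba1 rose with it in TRF WT and in TRF KO. Adrm1, the 19S ubiquitin receptor with another symbol, rose in TRF KO (log2 0.52 ± 0.13, adjusted p 0.0066). Nfe2l1 was not called in any liver comparison, and its group means were 138 to 163 CPM. Ubb, which encodes ubiquitin, fell in TRF KO (-0.39 ± 0.12). As a mark of clock phase in these libraries, Arntl averaged 29.8 CPM at CT0 and 3.42 at CT12 in AL WT, 1.97 and 30.4 in TRF WT, 1.34 and 32.4 in TRF KO, and 38.2 and 28.7 in AL KO.

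The difference between feeding regimes in the time effect was tested by an interaction term in liver. In WT, 9 genes (18.8%) had a higher time effect under TRF and 1 (2.08%) a lower one, where 11.9% and 13.1% of all genes were called. In KO, 11 (22.9%) were higher and 1 (2.08%) lower, where 5.24% and 5.90% of all genes were called. The difference for Psmd11 was 1.00 ± 0.12 on the log2 scale in WT (edgeR adjusted p 2e-06) and 0.97 ± 0.12 in KO (adjusted p 5.5e-06), and both kept their calls under all alternatives run (17 in WT and 19 in KO). In WT, Psmd7 (0.66 ± 0.13), Psmc5 (0.85 ± 0.17), Psmd4 (0.87 ± 0.18), Psmc2 (0.85 ± 0.19) and Psmc4 (0.71 ± 0.18) followed. In KO they were Psmd7 (0.56 ± 0.12), Psmc4 (0.71 ± 0.17), Psmd1 (0.65 ± 0.16), Psmc2 (0.71 ± 0.18) and Psmd14 (0.94 ± 0.24). The gene with a lower time effect under TRF was Psmb10 in both (-0.81 ± 0.25 in WT and -0.78 ± 0.24 in KO), and its call was lost under 5 of 17 alternatives in WT and 12 of 19 in KO. The WT and KO contrasts share no libraries, but both come from 1 fit of all livers with a common estimate of the spread. Without the 3-digit libraries, 8 genes were called in WT and 1, Psmd11, in KO, and the KO count was 6 without S56 or S65. Adrm1 passed in WT (0.74 ± 0.22) and in KO (0.78 ± 0.20), as did Ubqln1 (1.00 ± 0.11 and 0.80 ± 0.11).

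Genotype left the proteasome genes of the liver largely without calls. Under AL, 3 genes (6.25%) were lower in KO and none higher, beside 10.3% lower and 10.3% higher among all genes. The 3 were Psme3 (PA28 gamma, a nuclear activator; log2 -0.32 ± 0.08, edgeR adjusted p 0.0073), Psmb10 (-0.37 ± 0.13) and the ATPase gene Psmc3 (-0.19 ± 0.07). Psme3 ran from 60.7 to 74.0 CPM (median 69.3) in the 6 AL WT livers and from 46.1 to 58.4 (median 56.3) in the 6 AL KO livers, with no overlap. Under TRF, 1 gene (2.08%) was higher and 2 (4.17%) lower, beside 5.32% and 5.06% of all genes: Psmf1 (0.19 ± 0.06), Psmb5 (-0.48 ± 0.13, adjusted p 0.017) and Psmc4 (-0.27 ± 0.08). Psmb5, the chymotrypsin-like catalytic subunit, ran from 42.5 to 86.4 CPM (median 66.9) in TRF WT and from 39.4 to 51.9 (median 45.4) in TRF KO, and the ranges overlapped. The genotype by time interaction under AL gave 0 calls in edgeR and in DESeq2 (1.56% of all genes), with 1 gene at an unadjusted p under 0.05. The AL count went to 0 without the 3-digit libraries, to 1 without S407, S65, S66, S39 or S48, to 8 in a fit of the compared groups alone and to 5 in DESeq2. The TRF count was 0 without S3 or S12, 1 without S20, S30 or S11, 5 without S28, 6 without S10, 1 in a fit of the compared groups alone or with no filter, and 6 in DESeq2.

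Averaged over genotype and time, 7 proteasome genes (14.6%) were lower under TRF than under AL in liver and 1 (2.08%) higher, beside 8.95% and 10.9% of all genes. The lower genes were Psmd11 (log2 -0.21 ± 0.04, edgeR adjusted p 0.0016), Psmd14 (-0.36 ± 0.09), Psmc2 (-0.27 ± 0.07), Psma1 (-0.22 ± 0.06), Psmd1 (-0.19 ± 0.06), Psmd6 (-0.20 ± 0.06) and Psmb7 (-0.16 ± 0.05). Psmd9 was the higher gene (0.23 ± 0.08). Psmd11 ran from 73.4 to 114 CPM (median 99.4) over the 12 AL livers and from 57.5 to 115 (median 84.0) over the 14 TRF livers. The ranges overlapped widely, since the time effects went in opposite directions. The antigen presentation genes went the other way, with 5 of 8 higher under TRF, Nlrc5 (0.46 ± 0.11) and Irf1 (0.40 ± 0.09) among them. The assembly factor gene Pomp was lower (-0.17 ± 0.06) and Ubb higher (0.26 ± 0.07). Without the 3-digit libraries the count was 1, Psmd11; it was 5 without S38, S401, S404 or S47, 13 without S39 and 14 without S11.

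In heart, 26 of 48 proteasome genes (54.2%) were lower at CT12 than at CT0 in AL WT and none was higher, where 17.2% of the 16397 genes tested fell and 23.1% rose. They included all 7 beta subunits of the constitutive core, 3 of 7 alpha subunits, 2 of 6 ATPases and 7 of 11 other 19S subunits. This rests on the 3 AL WT CT12 hearts with neuron and glia transcripts, and its direction depended on scaling. With TMM factors taken over genes that SCN expresses at under 0.1 of their heart level, 26 genes were higher and none lower. That scaling, chosen after the data were seen, moved the median of all genes from 0.01 to 0.47, and the median of the 48 from -0.22 to 0.23. Relative to the median of all genes, the median of the 48 was at -0.23 under both. A change of scaling shifts all genes of a library alike, so this was largely fixed in advance and is no test of a relative fall. The median of all genes also takes in the neuron and glia transcripts of these hearts.

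Psmb7 (beta 2, the trypsin-like subunit) showed the smallest p, at 71.6, 71.9 and 74.3 CPM in AL WT hearts at CT0 and at 57.4, 51.8 and 55.9 at CT12, with no overlap (log2 -0.40 ± 0.07, edgeR adjusted p 3.2e-05). Under the other scaling its difference was 0.06. Psme2 (PA28 beta, an interferon-inducible activator; -0.41 ± 0.09), Psmd11 (-0.27 ± 0.06), Psme2b (-0.50 ± 0.11), Psmb4 (-0.44 ± 0.11) and Psma6 (-0.26 ± 0.06) followed. Of the constitutive and immune subunits named for comparison, Psmb5 (-0.50 ± 0.16), Psmb6 (-0.39 ± 0.12), Psmb10 (-0.50 ± 0.14) and Psme1 (-0.39 ± 0.11) were also called. Outside the family, 10 of 10 neuron and glia markers rose, 5 of 6 cardiomyocyte and 5 of 6 endothelial markers fell, and so did Pomp (-0.30 ± 0.07) and Nfe2l1 (-0.36 ± 0.11). All 3 AL WT CT12 hearts carried these transcripts, so circadian time and the mixed RNA cannot be told apart in this comparison. The count was 17 without S38 or S401, 16 without S48, 16 without the 3-digit libraries, 15 with no filter on low counts and 1 in a fit of the 2 groups alone.

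**Figure D3:**
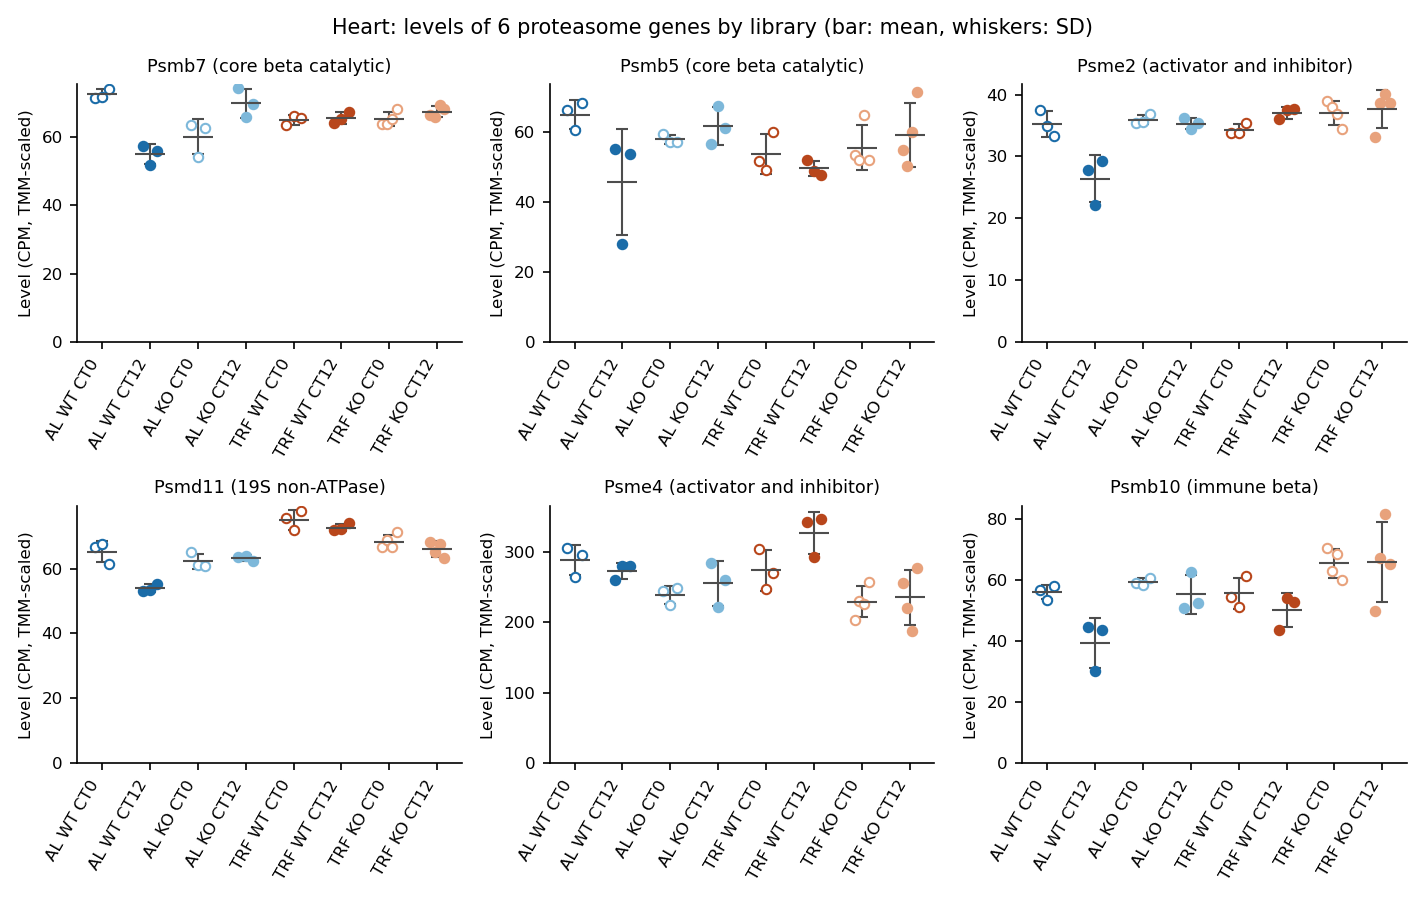
Level in heart (vertical axis, CPM scaled by TMM factors) of 6 proteasome genes in each library, by group (horizontal axis); circles are libraries (open at CT0, filled at CT12), bars the mean and whiskers the SD. The AL WT CT12 libraries are the lowest group for Psmb7, at 51.8 to 57.4, and Psme4 is lower in TRF KO than in TRF WT on average.

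No time effect on a proteasome gene was called in the other hearts. In AL KO, edgeR and DESeq2 called 0 (0.171% of all genes), with 2 genes at an unadjusted p under 0.05. In TRF WT they called 0 (4.38% of all genes), with 1 such gene, and in TRF KO 0 (3.22% of all genes), with 0 such genes. Psmd11, which separated the times in TRF livers, was at 75.5, 71.8 and 77.7 CPM in TRF WT hearts at CT0 and at 71.8, 72.2 and 74.0 at CT12. The interactions that take in the AL WT CT12 hearts had calls. For feeding by time in WT, 7 genes (14.6%) were higher and none lower, beside 12.4% and 17.5% of all genes, a share near the background. For genotype by time under AL, 19 (39.6%) were higher and none lower, beside 11.2% and 17.4%. Psmb7 led both (0.41 ± 0.09, edgeR adjusted p 0.0018, and 0.62 ± 0.09, adjusted p 2.6e-05). Under the scaling over genes low in SCN, 15 and 10 genes were lower and none higher, while the median of the 48 minus that of all genes stayed at 0.22 and 0.31 (0.23 and 0.31 before). Since scaling shifts all genes of a library alike, that too was largely fixed in advance. In the feeding by time interaction in KO, which does not use those hearts, 0 genes were called by edgeR or DESeq2 (1.65% of all genes), with 1 at an unadjusted p under 0.05.

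Besides Psmb7, Psme2 (0.52 ± 0.12), Psme2b (0.51 ± 0.15), Psmg1 (0.44 ± 0.15), Psme1 (0.43 ± 0.15) and Psmd11 (0.23 ± 0.08) were called for feeding by time in WT hearts. For genotype by time under AL in heart, the next were Psme2b (0.70 ± 0.15), Psmb1 (0.29 ± 0.08), Psmd11 (0.30 ± 0.08), Psma7 (0.40 ± 0.12) and Psmb4 (0.53 ± 0.15), with Psmb6 (0.53 ± 0.18) and Psme1 (0.40 ± 0.15) also called. The markers moved in these comparisons as well: 7 and 10 of 10 neuron and glia markers were lower, and 4 and 3 of 6 cardiomyocyte markers were higher. The first count was 3 without S38, S1 or S10 or with no filter, 4 without S2 or S11, 11 without S404 or S47, and 2 in a fit of the compared groups alone. The second was 11 without S407, S57 or S38, 12 without S401, 9 without the 3-digit libraries, 6 with no filter and 5 in a fit of the compared groups alone.

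Between genotypes, Psme4 was the proteasome gene called in heart under TRF, where 1.26% of all genes were higher in KO and 1.50% lower. Psme4 (chr11:30771726-30880361, plus strand) encodes PA200, an ATP-independent activator of the core, and was at 304, 248 and 270 CPM in TRF WT hearts at CT0 and at 342, 293 and 346 at CT12. In TRF KO hearts it was at 204, 230, 227 and 257 at CT0 and at 257, 221, 188 and 277 at CT12. The KO libraries were lower on average, with an overlap between 248 and 277 (log2 -0.36 ± 0.08, edgeR adjusted p 0.015). This was 1 gene of 48 (2.08%); without S1 of TRF WT it did not pass, and DESeq2 called 5 genes and a fit of the compared groups alone 4. Single libraries left out gave up to 3 calls, without S28, and 2 without S21 or S64.

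Under AL, 5 genes (10.4%) were higher and 1 (2.08%) lower in KO hearts, beside 6.34% and 12.2% of all genes. They were Psme2 (log2 0.22 ± 0.06, edgeR adjusted p 0.012), Psma7 (0.19 ± 0.06), Psme2b (0.23 ± 0.08), Psmc3 (0.19 ± 0.07) and Psmb10 (0.28 ± 0.10), and the assembly chaperone gene Psmd5 (-0.19 ± 0.06). This comparison also uses the AL WT CT12 hearts: at CT0 alone 1 gene was called, lower, and with the scaling over genes low in SCN 28 were lower and none higher, the median of all genes moving to -0.23. It was 0 with no filter or in a fit of the compared groups alone, 1 without the 3-digit libraries or without S66, S401 or S48, 2 without S56, S57 or S39, 3 without S407, S65 or S38, and 13 without S47.

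By feeding, 16 genes (33.3%) were higher under TRF than under AL in heart and none lower, beside 8.08% and 13.8% of all genes. The differences were small. Psmd11 ran from 53.2 to 67.5 CPM (median 61.8) over the 12 AL hearts and from 63.2 to 77.7 (median 69.9) over the 14 TRF hearts, with an overlap (log2 0.21 ± 0.03, edgeR adjusted p 1.8e-05). Psmc1 (Rpt2, an ATPase that opens the gate of the core) ran from 89.2 to 107 (median 101) and from 105 to 122 (median 115; log2 0.20 ± 0.03, adjusted p 8.7e-05). Psma5 (0.17 ± 0.04), Psma1 (0.13 ± 0.03), Psmd1 (0.14 ± 0.03) and Psmd6 (0.13 ± 0.03) followed. By role, 3 of 7 alpha genes, 2 of 6 ATPase genes and 6 of 11 other 19S genes rose, and no catalytic or immune subunit did.

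Pomp also rose in TRF hearts (log2 0.20 ± 0.03), while Nfe2l1 was not called. The count was 8 without the 3 AL WT CT12 hearts, Psmd11 and Psmc1 among them, and 3 at CT0 alone. With the scaling over genes low in SCN, 4 genes were lower and none higher, with the median of all genes at -0.14, and it was 10 with no filter on low counts. Of 10 neuron and glia markers, 9 were lower under TRF, and 4 of 6 cardiomyocyte markers higher, and their part was not tested.

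**Figure D4:**
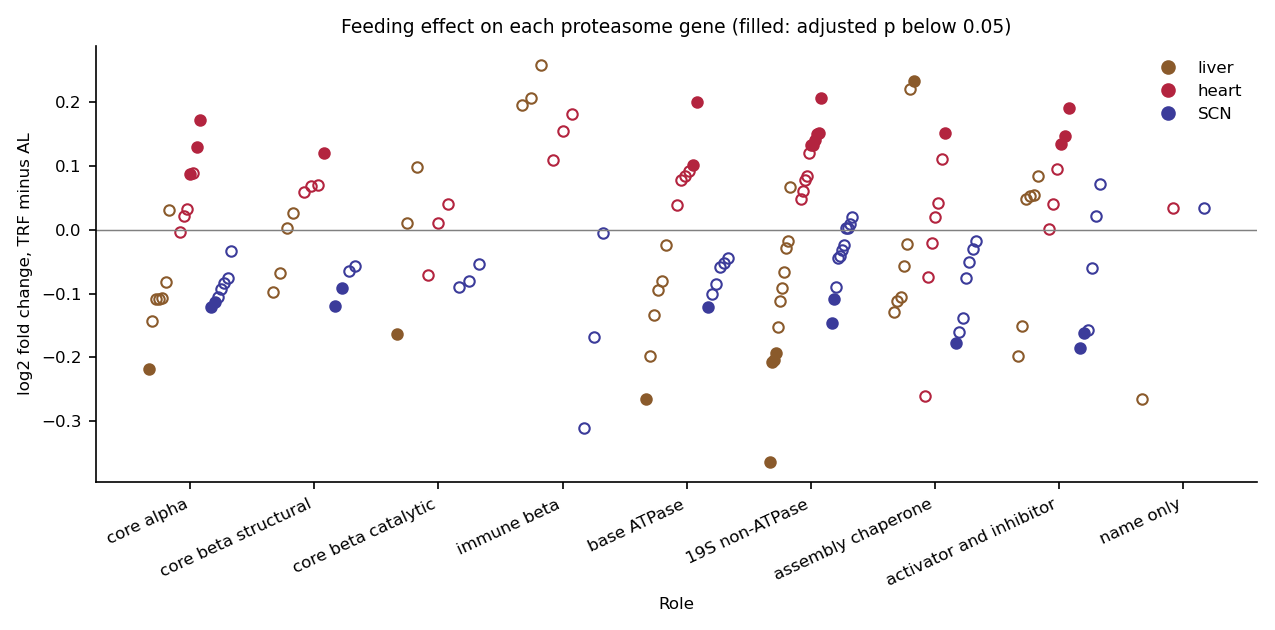
Log2 difference, TRF minus AL (vertical axis), of each proteasome gene by role (horizontal axis) in liver, heart and SCN (colours); filled points have an edgeR adjusted p below 0.05. In heart the 16 filled points lie above 0, in SCN the 10 filled points below it, and in liver 7 of 8 below it.

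In the SCN, the proteasome genes showed a feeding effect and no time effect that passed the test. Under TRF 10 genes (20.8%) were lower and none higher, beside 7.35% and 8.96% of the 18133 genes tested. Psma6 (an alpha subunit) ran from 71.6 to 81.5 CPM (median 76.4) in the 12 AL libraries and from 67.2 to 77.2 (median 70.5) in the 12 TRF libraries, with overlapping ranges (log2 -0.11 ± 0.02, edgeR adjusted p 0.0065). Psme2 ran from 21.0 to 26.1 (median 22.4) and from 17.8 to 25.3 (median 19.7), also with overlap (log2 -0.19 ± 0.05, adjusted p 0.016). The others named were Psma2 (-0.12 ± 0.03), Psmb1 (-0.12 ± 0.03), Psmc2 (-0.12 ± 0.03), Psmd14 (-0.15 ± 0.04) and Psme1 (-0.16 ± 0.05). Psmg1, Psmd12 and Psmb4 were also lower.

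The median over the 48 was -0.08 in the SCN, and -0.01 over all genes. None of the constitutive or immune catalytic subunits passed, though Psmb9 was at -0.31. Nfe2l1 was higher (log2 0.10 ± 0.03), and Ubb (-0.10 ± 0.03) and Irf1 (-0.36 ± 0.08) were lower. All 7 microglia markers were higher under TRF, their sum being 210 to 288 CPM over the AL and 220 to 326 CPM over the TRF libraries, and their part was not tested. The count was 6 without S39 and 19, all lower, without the 3-digit libraries.

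For the other SCN comparisons edgeR called 0 proteasome genes. Time in AL WT (0.0276% of all genes called) and in AL KO (0%) had 0 genes at an unadjusted p under 0.05, time in TRF WT (0.0165%) had 3 and time in TRF KO (0%) had 6, all lower. Genotype had 1 under AL (0%) and 7, all higher, under TRF (0.00551%). The interactions had 2 for feeding by time in WT (0%), 2 in KO (0%) and 1 for genotype by time under AL (0%). DESeq2 called 0 in each of these, except for 1 higher gene in genotype under TRF. Psmd11 illustrates the levels: it was at 57.2, 57.6 and 62.5 CPM in TRF WT SCN at CT0 and at 60.6, 52.6 and 63.5 at CT12. Libraries of the 2 times overlapped.

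The time effects in liver and SCN were not compared in a test, nor were the feeding effects in the 3 tissues.

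On library totals, the activator gene Psme4 and the chaperone gene Psmd5 set the 3 tissues apart. The immune subunit genes Psmb8 and Psmb9 were lowest on average in SCN, and Psmb10 and Psmb5 overlapped among the tissues. In CPM of library totals, with no TMM factor, Psme4 averaged 263 ± 39.1 in heart, 95.8 ± 16.1 in liver and 32.0 ± 2.68 in SCN (SD; n = 26, 26 and 24). Libraries ran from 184 to 342, from 69.4 to 135 and from 27.2 to 36.7, so no 2 tissues overlapped. Psmd5 ran from 15.9 to 24.1 in heart, from 26.2 to 39.5 in liver and from 52.5 to 65.4 in SCN, also with no overlap. Psmb8 averaged 11.9 ± 3.42 in liver, 6.73 ± 1.85 in heart and 1.83 ± 0.429 in SCN, and Psmb9 17.7 ± 5.42, 11.8 ± 2.73 and 2.17 ± 0.570. For both genes liver and heart overlapped, and the SCN lay below every liver. Psmb10 averaged 40.4 ± 9.63, 56.6 ± 10.01 and 45.3 ± 2.56, and the tissues overlapped. Psmb5 averaged 52.6 ± 13.6, 56.3 ± 9.22 and 52.5 ± 4.42, and the tissues overlapped. For these 2 genes the picture depended on scaling. In the TMM fit described below, SCN was lower than liver for Psmb10 (log2 -1.12 ± 0.05) and Psmb5 (-1.31 ± 0.06).

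Per kb of exon (the union of exons in GENCODE vM21), Psmb8 stood at a median of 0.0597 of its constitutive counterpart Psmb5 in liver, 0.0309 in heart and 0.00856 in SCN. Psmb9 stood at 0.0720, 0.0469 and 0.00935 of Psmb6. Psmb10, by contrast, stood at 1.47, 1.69 and 1.88 times Psmb7, highest in SCN, with ranges that overlapped (1.04 to 2.67, 1.17 to 2.36 and 1.55 to 2.09). Psmb8 and Psmb10 overlap antisense transcripts, Psmb9 overlaps Tap1 and Psmb7 overlaps Nek6, and these ratios also depend on the exon lengths used. For Psmb10 over Psmb7 the lengths (1705 and 3421 bp) set which gene is higher. Without them, Psmb10 averaged below Psmb7 in each tissue, in CPM of library totals. The means were 40.4 against 52.7 in liver, 56.6 against 65.2 in heart and 45.3 against 48.4 in SCN. Scaled within each tissue, the 7 microglia markers summed to 210 to 326 CPM in the SCN, 62.0 to 96.5 in heart and 20.5 to 82.8 in liver, and their part in these ratios was not tested. In CPM of library totals, Psme2, an interferon-inducible activator, followed the order of Psmb8 (50.7 ± 3.71 in liver, 35.0 ± 3.62 in heart and 21.5 ± 2.52 in SCN). The other PA28 gene of this kind, Psme1, did not (81.9 ± 5.34, 107.9 ± 13.55 and 51.1 ± 5.13). Psme3, the nuclear activator, had the reverse order of means to Psme2 there (58.3 ± 8.77, 64.3 ± 3.36 and 107 ± 3.45), with liver and heart overlapping. The order of Psme3 depended on scaling. In the TMM fit described below, Psme3 was lower in heart (log2 -0.36 ± 0.03) and in SCN (-0.43 ± 0.03) than in liver.

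**Figure D5:**
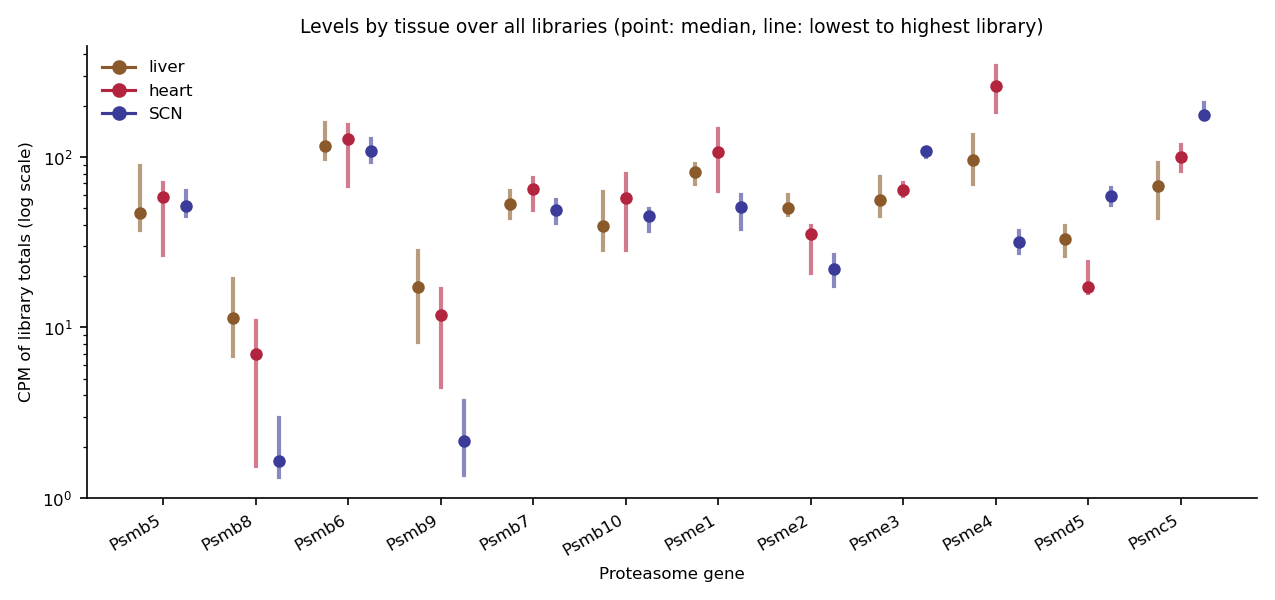
Level of 12 proteasome genes (horizontal axis) in liver, heart and SCN, as CPM of library totals on a log axis; points are medians over the 26, 26 and 24 libraries and lines run from the lowest to the highest library. On this scale Psme4 is highest in heart, Psmb8 and Psmb9 lowest in SCN, and Psme3, Psmd5 and Psmc5 highest in SCN. In the TMM fit Psme3 and Psmd5 were lower in SCN than in liver.

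In the joint edgeR fit of the 3 tissues (20006 genes), 5 proteasome genes (10.4%) were higher and 37 (77.1%) lower in heart than in liver, beside 43.5% and 40.1% of all genes. In SCN against liver 2 (4.17%) were higher and 46 (95.8%) lower, beside 47.4% and 45.8%, and in SCN against heart 3 (6.25%) and 41 (85.4%), beside 45.9% and 44.3%. These splits depend on scaling, since the TMM factors ran from 0.618 to 1.71 across tissues. With library totals alone, 23 were higher and 18 lower in heart against liver, 20 and 19 in SCN against liver, and 20 and 24 in SCN against heart. That scaling moved the median of all genes from 0.18 to 0.63, from 0.05 to 1.34 and from 0.01 to 0.80. Relative to the median of all genes, the median of the 48 was at -0.60 in heart against liver under TMM and at -0.54 with library totals. In SCN against liver it was at -1.36 and -1.34, and in SCN against heart at -0.90 and -0.89. A change of scaling shifts all genes of a library alike, so the closeness of these values is no test.

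Under the TMM fit Psmd11 was lower in heart (log2 -0.94 ± 0.02) and SCN (-1.90 ± 0.02) than in liver, and Psme4 was higher in heart (0.96 ± 0.04) and lower in SCN (-2.90 ± 0.05). Psmd5, a chaperone of the ATPase ring, was lower in heart than in liver (-1.37 ± 0.03) and higher in SCN than in heart (0.90 ± 0.03). In SCN it was lower than in liver (-0.47 ± 0.03), the reverse of the order on library totals. Psmc3 rose in heart against liver (0.47 ± 0.03), at 242 ± 23.7 CPM of totals against 122 ± 14.4, and was at 144 ± 7.88 in SCN. Psmc5, another ATPase gene, was at 183 ± 12.2 in SCN, 100.03 ± 6.58 in heart and 69.1 ± 13.1 in liver, and in the TMM fit its difference between heart and liver did not pass. Of the proteasome genes in heart against liver, 6 did not pass (Psmb10, Psmc5, Psmd1, Psmd2, Psmd12 and Psmg4), and in SCN against heart 4 did not (Psmd9, Psmd10, Psmd14 and Psmg3).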

How the data were processed

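RNA of 76 mouse liver, heart and SCN libraries was extracted with TRIzol and made into libraries from 1.3 ug with the NEBNext Ultra II kit, per the labels. FastQC 0.11.8 and STAR with mm10 (GRCm38) are named in the submitters' processing notes. The counting program, its annotation and its strand setting are not given in the sources used here, so reads of overlapping genes cannot be told apart. The authors deposited raw read counts per gene in a single table, and 99.8% of its identifiers matched GENCODE vM21. Columns were matched to libraries by title number and tissue.

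Genes were filtered with filterByExpr, scaled by TMM and fitted over the 8 groups of a tissue, or the 24 groups of all tissues, with edgeR 4.0.16 (robust quasi-likelihood, R 4.3.3). The fit was tested on simulated data. Contrasts were time, genotype, feeding and their interactions, and a gene was called below an adjusted p of 0.05. SE is the absolute log2 difference over the square root of F. Alternatives were DESeq2 1.42.0, RLE scaling, no filter, fits of the compared groups alone, CT0 groups alone, libraries left out and a replicate block. After the data were seen, a TMM over heart genes low in SCN, library totals alone and fits without the 3 AL WT CT12 hearts were added. All replicate pairs differed by more than sampling noise. Within heart and within liver, the pairs of a 3-digit AL library with the lowest-numbered library of its group differed least. Named genes were, in each comparison, up to 6 called subunits with the smallest adjusted p, the catalytic, immune and PA28 subunits where compared, and from pathway lists Nfe2l1, Pomp, Adrm1, Ubb and up to 2 called genes of each list. A further gene of this rule is not reported here. The genes and lists were chosen with earlier results of these data known. Figures were drawn with Python 3.11.15.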

Additional observations from a re-analysis of the deposited data

Results flagged for a closer look

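The largest difference between feeding regimes in the time effect was in liver Psmd11, where the interaction was 1.00 on the log2 scale in WT and 0.97 in KO. In WT the interaction was also called for Psmd7 (0.66), Psmc5 (0.85), Psmd4 (0.87), Psmc2 (0.85), Psmc4 (0.71) and, downward, Psmb10 (-0.81). In KO livers it was called for Psmd7 (0.56), Psmc4 (0.71), Psmd1 (0.65), Psmc2 (0.71), Psmd14 (0.94) and, downward, Psmb10 (-0.78). In WT hearts the feeding by time interaction was called for Psmb7 (0.41), Psme2 (0.52), Psme2b (0.51), Psmg1 (0.44), Psme1 (0.43) and Psmd11 (0.23). In AL hearts the genotype by time interaction was called for Psmb7 (0.62), Psme2b (0.70), Psmb1 (0.29), Psmd11 (0.30), Psma7 (0.40), Psmb4 (0.53), Psme2 (0.39), Psmb6 (0.53) and Psme1 (0.40). The heart interactions named here all use the AL WT CT12 hearts with neuron and glia transcripts, so feeding or genotype and the mixed RNA cannot be told apart in them.

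Single libraries stood far from the others of their group in 5 of 148 checks, made of 37 named genes in the 4 groups of 4 libraries (TRF KO at each time in liver and heart). The checks share these libraries, and chance alone sets a library apart in about 1 in 20, a rate that 5 of 148 does not exceed. Psmb9 was at 17.1 CPM in TRF KO CT0 liver S55 and at 26.4 to 27.4 in the others. In TRF KO CT0 hearts, Psmb5 was at 65.0 in S73 (others 51.9 to 53.6) and Psme1 at 109 in S55 (others 122 to 124). In TRF KO CT12 hearts, Psma6 was at 102 in S30 (others 97.8 to 98.0) and Psme3 at 60.3 in S29 (others 64.9 to 65.8).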

How the results depend on the processing

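Of 585 counts of called subunits under alternatives, 495 stayed within 1.5 times the reported count, 82 moved beyond it and 8 turned in direction. Of 2959 values of named genes, 2654 kept direction and call, 279 lost the call and 26 turned. Apart from those at CT0 alone, all that turned did so under TMM over genes low in SCN or library totals, which shift all genes of a library alike. They therefore say nothing on these genes relative to others: in heart AL WT time the median of the 48 minus that of all genes was -0.23 under both scalings. With TMM over genes low in SCN, heart counts were 26 for AL WT time, 28 for AL genotype, 4 for feeding, 15 for feeding by time in WT and 10 for genotype by time, all turned. The turned log2 values were 0.058 (Psmb7), 0.025 (Psme2), 0.19 (Psmd11), 0.21 (Psma6), 0.051 (Psme1) and 0.029 (Psmb6) for heart AL WT time, -0.032 (Psma7) and -0.0265 (Psmc3) for heart AL genotype, and -0.0073 (Psma1) and -0.0067 (Psmd6) for heart feeding. They were -0.027 (Psmb7) and -0.22 (Psmd11) for heart feeding by time in WT, and -0.20 (Psmb1), -0.19 (Psmd11), -0.065 (Psma7), -0.074 (Psme2) and -0.065 (Psme1) for heart genotype by time. At CT0 alone, heart AL genotype gave 1 and feeding 3, with -0.011 (Psma7), -0.11 (Psme2b) and -0.0042 (Psmc3) for genotype. With library totals, heart against liver gave 41 and SCN against liver 39, with 0.084 (Psmb6), 0.30 (Psmb7), 0.10 (Psmb5) and 0.38 (Psme1) in heart and 0.0033 (Psmb5) and 0.19 (Psmb10) in SCN. With no filter the counts were 1 for liver AL WT time, 1 for liver TRF genotype, and in heart 15 (AL WT time), 0 (AL genotype), 10 (feeding), 3 (feeding by time in WT) and 6 (genotype by time). In fits of the compared groups alone they were 4 for liver TRF WT time, 8 and 1 for liver AL and TRF genotype, and in heart 1 (AL WT time), 0 and 4 (AL and TRF genotype), 2 (feeding by time in WT) and 5 (genotype by time). That fit is the same as the reported one for feeding and was not run there. DESeq2 gave 5 and 6 for liver AL and TRF genotype, 5 for heart TRF genotype and 1 for SCN TRF genotype. Without the 3-digit AL libraries the counts were, in liver, 0 (AL WT time), 0 (AL genotype), 1 (feeding) and 1 (feeding by time in KO), in heart 16 (AL WT time), 1 (AL genotype) and 9 (genotype by time), and 19 for SCN feeding. Heart feeding gave 8 without the 3 AL WT CT12 hearts. Leaving out single libraries gave ranges in liver of 1 to 3 (AL WT time), 5 to 10 (TRF WT time), 10 to 16 (TRF KO time), 1 to 4 (AL genotype), 0 to 6 (TRF genotype), 5 to 14 (feeding), 9 to 13 and 6 to 13 (feeding by time in WT and KO). In heart they were 16 to 28 (AL WT time), 1 to 13 (AL genotype), 0 to 3 (TRF genotype), 14 to 19 (feeding), 3 to 11 (feeding by time in WT) and 11 to 20 (genotype by time), and in SCN 6 to 15 (feeding). Why these counts moved was not tested. Libraries of different tissues share title numbers, but same-numbered deviations correlated at a median of 0.05, 0.06 and 0.03, and over 0.1 in 9 of 26, 11 of 24 and 8 of 24 pairs, so the numbers were not taken as pairs. With the number as a replicate block, the tissue comparisons gave 42, 48 and 44 calls. Within a tissue, no paired analysis was possible because the groups compared share no numbers. Depth limits Psmc3ip, at 0.455 CPM in liver, and Psmb8 and Psmb9 in SCN.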
